A study of Mus musculus with 9 samples.

Results

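Complement is a cascade of plasma and tissue proteins that marks surfaces for clearance and recruits inflammatory cells. In the classical route C1q binds a target and its associated proteases cleave C4 and C2, whereas in the alternative route factor B pairs with C3b. Both routes build a convertase that cleaves C3, and the small fragments C3a and C5a signal through receptors on myeloid cells. Most circulating components are made by hepatocytes, whereas C1q is made mainly by macrophages, and fibroblasts and other stromal cells also make C3, C4 and C1 inhibitor.

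The 9 genes described here are complement components and regulators, selected by gene name from the 41710 gene names of the deposited tables, whatever their values. C1qa, C1qb and C1qc encode the chains of the recognition molecule C1q. C4b, C3 and Cfb encode parts of the C3 convertases, C3ar1 and C5ar1 the receptors of C3a and C5a, and Serping1 the C1 inhibitor, which blocks the C1 proteases. Reads and TPM (reads per base of transcript, scaled to a common total in each library) were summed over the annotated transcripts of each gene. All 9 genes had reads in all 9 libraries and passed the filter on low counts, so that none was lost from the tests.

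The libraries were made from whole hearts of male mice aged 8 months, all on the FVB/N background, with n = 3 in each group. Tg-RKIP mice carry a transgene for the Raf kinase inhibitor protein RKIP (gene Pebp1) driven by the alpha-MHC promoter, which is active in cardiomyocytes. Tg-GRK2 mice carry a transgene for G-protein-coupled receptor kinase 2, and the promoter and line of that transgene are not given in the sources used here. The controls, called FVB, were non-transgenic. FVB mice are known to carry a loss-of-function allele of Hc, the gene of C5, which all 3 groups would share; no allele was examined here.

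The 9 libraries held 25458108 to 33447654 reads on transcripts. Pebp1 stood at 15967 to 16371 TPM in Tg-RKIP against 321 to 330 TPM in FVB. Grk2 was not higher in the Tg-GRK2-labelled libraries than in FVB (log2 fold change 0.05 ± 0.04 SE, adjusted p = 0.354 by the quasi-likelihood test of edgeR with Benjamini-Hochberg correction), so these are named by their label. Mitochondrial genes took 11.7% ± 0.156 of the reads in Tg-RKIP, 22.6% ± 0.299 in the Tg-GRK2-labelled libraries and 23.1% ± 0.158 in FVB (SD, n = 3). Fold changes are therefore those of counts scaled by the trimmed mean of M-values (TMM), on the log2 scale with their SE. Scaling by library size alone moved the median of all genes to 0.38 and TPM moved it to 0.43, in Tg-RKIP against FVB, and the TPM values below include that shift.

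The 3 C1q genes lie side by side on the minus strand of chromosome 4, in coordinates of the deposited tables (GRCm39 by the submitters' processing notes): C1qb at chr4:136607440-136613498, C1qc at chr4:136617115-136620376 and C1qa at chr4:136623228-136626114. C3 (chr17:57510970-57535136), C4b (chr17:34947354-34962856) and Cfb (chr17:35075350-35081494) are on chromosome 17, where C4b and Cfb belong to the major histocompatibility complex class III region. C3ar1 lies at chr6:122824097-122833120, C5ar1 at chr7:15980668-15993465 and Serping1 at chr2:84595731-84605788, all on the minus strand.

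Sequence bears on how far the reads of 2 of these genes can be told from those of a neighbour. C4a is a close copy of C4b, and over 5202 aligned coding bases the 2 differed at 200, or 3.845%. Of the 5330 windows of read length (50 bases) in the main C4b transcript, 1875 or 35.2% also occur in a C4a transcript, so reads from them have no unique source. The stretch below is the 60 coding bases with the most differences, shown as an example of sequence that separates the reads of the pair. It is not typical, and windows with fewer differences also separate them. It spans bases 2761 to 2820 of the C4b transcript and 2745 to 2804 of the C4a transcript (GENCODE M21, plus strand of the transcript), and capitals mark the 13 bases that differ.
C4b: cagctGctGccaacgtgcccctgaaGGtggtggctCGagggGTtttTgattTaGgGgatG
C4a: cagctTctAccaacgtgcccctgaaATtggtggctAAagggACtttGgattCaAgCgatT

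Cfb is harder to separate. Its transcripts share 80.1% to 94.4% of their read-length windows with Gm20547, an annotated transcript that reads through from C2 into Cfb. C1qa, C1qb and C3ar1, with 1 annotated transcript each, share no window with another transcript, and C1qc, C3, C5ar1 and Serping1 share none with another gene.

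A RefSeq promoter window (GRCm38.p6) was matched for 5 of the 9 genes, C1qb, C1qc, C3, C3ar1 and C5ar1. The 250 bases upstream of the start of 3 of them follow, 5′ to 3′ on the gene's strand. They are C1qb at chr4:136886201-136886450, C1qc at chr4:136892915-136893164 and C3 at chr17:57228137-57228386, all on the minus strand. Capitals mark matches to the motifs searched on both strands, GAGGAAG (PU.1), TTGCNNAA (C/EBP) and an interferon response motif (GAAA followed, after any 2 bases, by GAAA); no matches overlap.
C1qb: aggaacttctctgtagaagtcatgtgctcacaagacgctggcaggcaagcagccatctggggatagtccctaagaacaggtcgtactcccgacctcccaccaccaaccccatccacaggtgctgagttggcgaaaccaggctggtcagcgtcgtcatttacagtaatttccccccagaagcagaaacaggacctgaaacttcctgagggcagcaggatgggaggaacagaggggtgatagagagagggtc
C1qc: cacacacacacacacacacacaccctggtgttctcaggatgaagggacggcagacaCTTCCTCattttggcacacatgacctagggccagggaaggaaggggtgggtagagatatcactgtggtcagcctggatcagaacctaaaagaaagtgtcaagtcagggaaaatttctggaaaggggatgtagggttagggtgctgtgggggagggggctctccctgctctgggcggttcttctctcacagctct
C3: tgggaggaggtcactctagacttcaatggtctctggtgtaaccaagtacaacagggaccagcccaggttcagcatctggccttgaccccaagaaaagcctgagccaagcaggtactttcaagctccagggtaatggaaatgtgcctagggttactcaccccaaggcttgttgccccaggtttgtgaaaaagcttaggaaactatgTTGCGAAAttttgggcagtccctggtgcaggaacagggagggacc

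C1qc held 1 match to the PU.1 motif, on the minus strand and beginning 194 bases before the start. C3 held 1 match to the C/EBP motif, on the plus strand and beginning 45 bases before the start. None of the 3 motifs was in the windows of C1qb, C3ar1 and C5ar1, and the windows of C3ar1 and C5ar1 are not shown. All 5 genes were higher in Tg-RKIP than in FVB, and a part of the motifs in that was not tested. Among 32851 promoter windows of the same length, 10.6% held the PU.1 letters, 9.56% the C/EBP letters and 2.98% the interferon response letters.

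Every one of the 9 genes was higher in Tg-RKIP hearts than in FVB hearts, and none was lower. C4b rose the most, by 2.07 on the log2 scale, and C3ar1 the least, by 0.56, with a median of 1.03 over the 9. Of 15504 genes tested, 73.9% passed in this comparison and 36.8% were higher, and the median log2 fold change of all of them was 0.01. The TMM-normalized counts of every Tg-RKIP library lay above those of every FVB library for all 9 genes, as they did for 38.0% of all genes tested. Against the Tg-GRK2-labelled libraries all 9 were higher again, with a median of 0.94, beside 37.9% of all genes higher and 74.5% past the threshold, and all 9 lay without overlap above them in TMM-normalized counts, as 39.1% of all genes did. In the Tg-GRK2-labelled libraries against FVB, 4 of the 9 were higher, 5 did not pass and none was lower, beside 12.2% higher and 24.5% past the threshold among all genes. For 4 of the 9 the TMM-normalized counts lay above those of every FVB library, against 18.5% of all genes. These comparisons share their FVB or Tg-RKIP libraries and are not independent of each other.

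**Figure D1:**
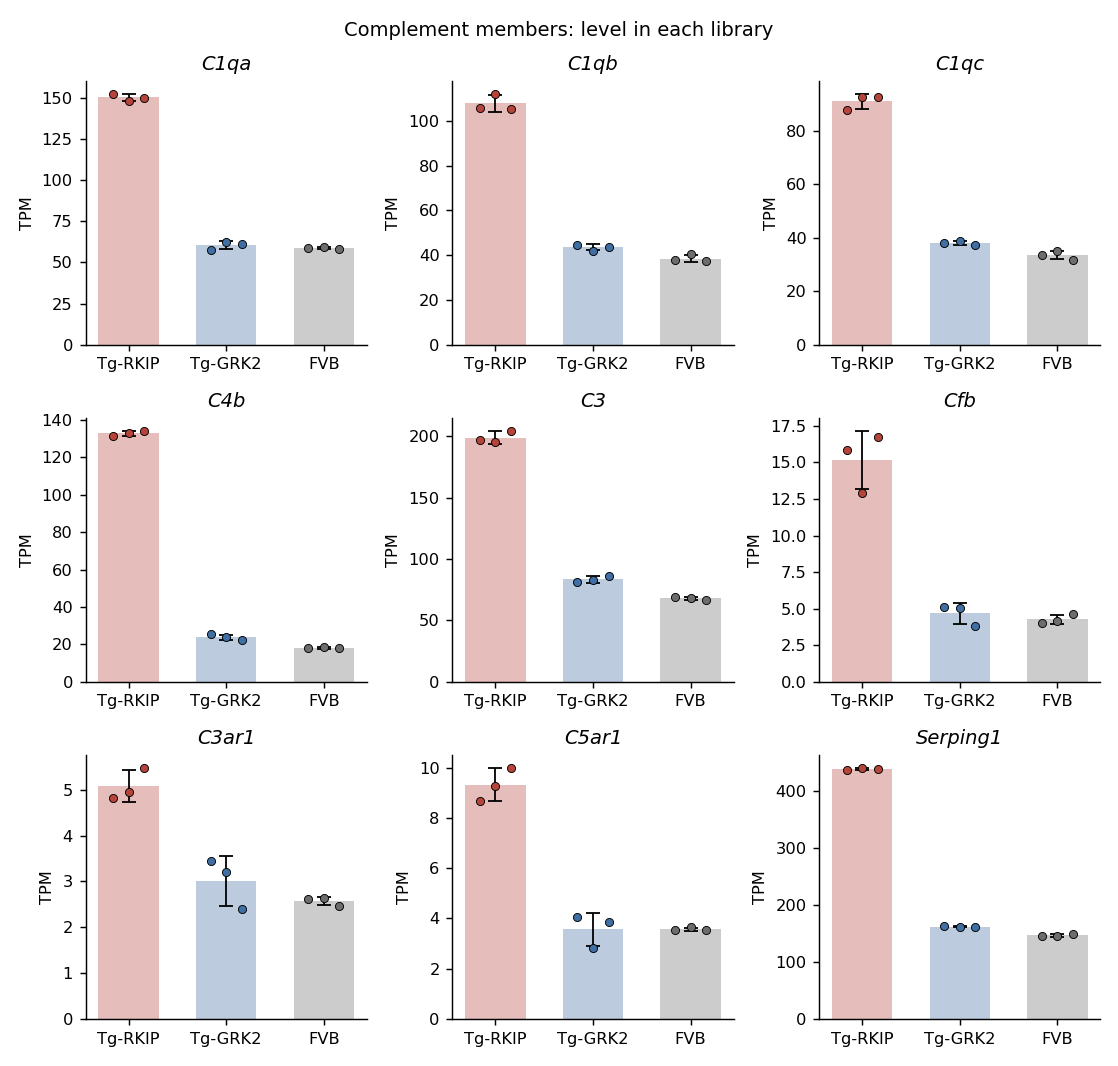
Level of each complement gene in TPM, by group; points are the 3 libraries of a group in replicate order, bars the mean and lines the SD, with each y axis starting at 0. All 3 Tg-RKIP points lie above the 6 others in every panel, whereas the points of the Tg-GRK2-labelled libraries and of FVB overlap for C1qa, C3ar1, C5ar1 and Cfb.

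Of the recognition genes, C1qa was the most abundant. Its TPM was 153, 148 and 150 in Tg-RKIP, 57.6, 62.6 and 61.5 in the Tg-GRK2-labelled libraries, and 58.7, 59.4 and 58.3 in FVB. The Tg-RKIP libraries stood apart, and the other groups overlapped. C1qa was 0.94 ± 0.03 higher in Tg-RKIP than in FVB (log2, SE; adjusted p = 6.03e-17 by edgeR's quasi-likelihood test), and the Tg-GRK2-labelled libraries differed from FVB by -0.01 ± 0.04 (adjusted p = 0.91). By an exact two-sided permutation test on TPM the first difference gave p = 0.1, the smallest that 3 libraries against 3 allow, and so did every comparison below in which TPM did not overlap.

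C1qb, the B chain, stood at 106, 112 and 105 TPM in Tg-RKIP, at 44.5, 42.0 and 43.9 in the Tg-GRK2-labelled libraries, and at 37.7, 40.4 and 37.4 in FVB. All 3 groups were in separate ranges of TPM, with Tg-RKIP far above the rest, although the other groups overlapped in TMM-normalized counts. C1qb rose by 1.07 ± 0.04 in Tg-RKIP (adjusted p = 4.32e-16) and stood at 0.12 ± 0.05 in the Tg-GRK2-labelled libraries, which missed the threshold narrowly (adjusted p = 0.0501, edgeR). C1qc, the C chain, had 87.9, 92.8 and 92.7 TPM in Tg-RKIP, 38.2, 38.6 and 37.4 in the Tg-GRK2-labelled libraries, and 33.7, 34.9 and 31.8 in FVB. Again the groups did not overlap. C1qc was 1.03 ± 0.04 higher in Tg-RKIP (adjusted p = 5.13e-16) and 0.13 ± 0.04 higher in the Tg-GRK2-labelled libraries (adjusted p = 0.0306, edgeR). The latter call was lost on leaving out any library of the pair of groups except FVB 2, at log2 fold changes of 0.10 to 0.14.

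The C1q chains assemble in equal numbers, and their mRNA levels kept a similar order in every library, C1qa above C1qb above C1qc. The ratio of C1qb to C1qa TPM was 0.717 ± 0.035 in Tg-RKIP, 0.719 ± 0.0512 in the Tg-GRK2-labelled libraries and 0.654 ± 0.0221 in FVB (SD, n = 3). That of C1qc to C1qa was 0.606 ± 0.0271, 0.629 ± 0.0289 and 0.569 ± 0.0209 in the same order. The range of C1qb over C1qa was 0.693 to 0.757 in Tg-RKIP and 0.641 to 0.680 in FVB, while the Tg-GRK2-labelled libraries, at 0.671 to 0.773, overlapped both.

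C1q transcripts and most macrophage markers were higher in Tg-RKIP hearts, as were markers of several other cell types. Mesothelial markers, for example, were higher than in FVB at 6 of 6 genes, with a median log2 fold change of 0.96. A list of 14 macrophage markers, which holds no C1q gene, summed to 562 to 570 TPM in Tg-RKIP, 265 to 277 in the Tg-GRK2-labelled libraries and 239 to 242 in FVB, and none of its genes was at 0. Of the 14, 11 were higher in Tg-RKIP than in FVB, 1 was lower (Cd163, -0.15) and 2 did not pass (Lyve1 and Timd4). Their median log2 fold change was 0.78, and 36.8% of all genes were higher. In the Tg-GRK2-labelled libraries against FVB, 5 were higher, 3 lower and 6 did not pass, beside 12.2% higher and 12.2% lower among all genes. The summed TPM of the 3 C1q genes over that of the list was 0.608 to 0.629 in Tg-RKIP, 0.516 to 0.541 in the Tg-GRK2-labelled libraries and 0.534 to 0.556 in FVB. In whole hearts more cells of a type and more RNA per cell cannot be told apart.

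C4b, the mouse C4 gene of the classical convertase, had the largest change. Its TPM was 131, 133 and 134 in Tg-RKIP, 25.3, 23.8 and 22.6 in the Tg-GRK2-labelled libraries, and 17.9, 18.4 and 17.9 in FVB, without overlap between any groups. On 7841 to 10098 reads in Tg-RKIP and 1507 to 1699 in FVB, C4b rose by 2.07 ± 0.03 (adjusted p = 6.07e-24), a 4.21-fold difference in TMM-normalized counts. The Tg-GRK2-labelled libraries were 0.38 ± 0.03 above FVB (adjusted p = 6.39e-09) and 1.69 ± 0.03 below Tg-RKIP (adjusted p = 9.94e-23, edgeR). C4a took 1.39% to 2.35% of the reads counted for C4a and C4b in the 9 libraries. With the reads of C4b and C4a added, a choice made after the data were seen, the log2 fold changes were 2.08 in Tg-RKIP and 0.38 in the Tg-GRK2-labelled libraries.

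C3, the component on which the routes converge, was second in summed TPM only to Serping1, although in Tg-RKIP its main transcript alone, at 148 ± 1.72 TPM, was beside C1qa at 150 ± 2.28. Its level was 197, 195 and 205 TPM in Tg-RKIP, 80.9, 83.1 and 86.0 in the Tg-GRK2-labelled libraries, and 68.8, 68.5 and 66.4 in FVB. Each group lay in its own range. C3 rose by 0.76 ± 0.02 in Tg-RKIP (adjusted p = 2.59e-19) and by 0.22 ± 0.02 in the Tg-GRK2-labelled libraries (adjusted p = 1.59e-08), and the Tg-RKIP libraries exceeded the latter by 0.54 ± 0.02 (adjusted p = 9.13e-17, edgeR).

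**Figure D2:**
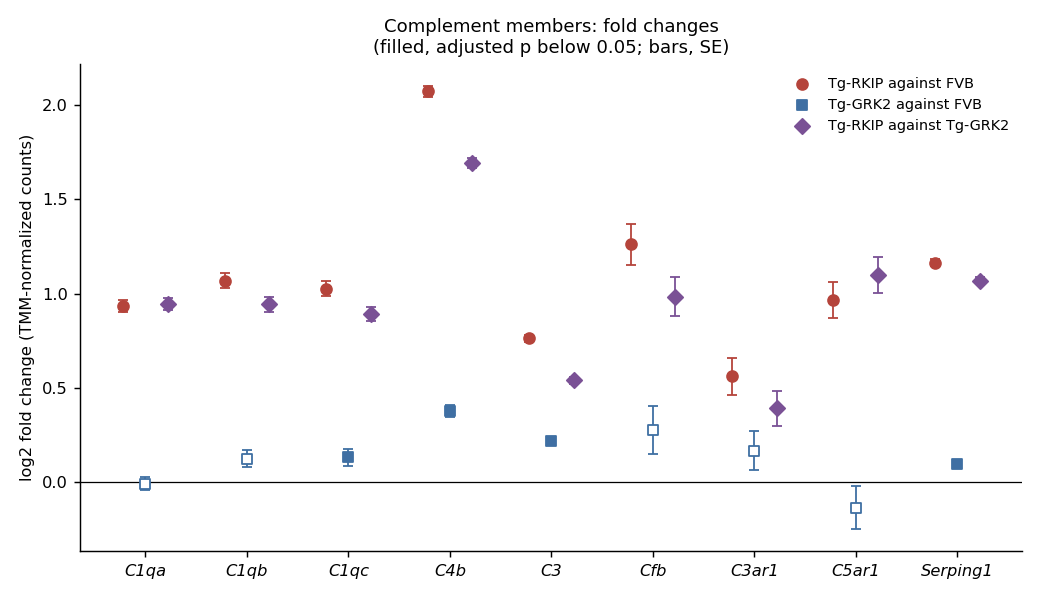
Log2 fold change of TMM-normalized counts for each complement gene in the 3 comparisons, with SE as bars; filled symbols have an adjusted p below 0.05. C4b is the highest point in Tg-RKIP against FVB at 2.07, and all points of the Tg-GRK2-labelled libraries against FVB lie between -0.13 and 0.38.

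For C3 and C4b the rise in TPM over FVB exceeded that in TMM-normalized counts also after subtraction of the median of all genes. It was 1.12 against 0.75 for C3 and 2.44 against 2.07 for C4b on the log2 scale, but 0.93 on both scales for C1qa, which has 1 transcript. TPM was computed per transcript, so a short transcript turns few reads into many TPM. A C4b transcript of 749 bases with a retained intron took 615, 837 and 629 reads in Tg-RKIP, against 25, 19 and 46 in the Tg-GRK2-labelled libraries and 27, 40 and 30 in FVB. It held 7.84% to 8.29% of C4b reads in Tg-RKIP and 1.76% to 2.35% in FVB, yet 38.0% and 12.6% of C4b TPM. A C3 transcript of 554 bases took 464, 536 and 523 reads in Tg-RKIP and 0 in every other library. Thus it held 3.11% to 4.00% of C3 reads in Tg-RKIP and 25.4% of C3 TPM. In FVB, 0 of 19806 C3 reads allows a share of up to 0.0151%, and 0 of 24677 in the Tg-GRK2-labelled libraries up to 0.0122%, by counting error only. Only 9.70% of the read-length windows of this C3 transcript and 32.0% of those of the C4b transcript occur in no other transcript, and how the authors divided shared reads is not given in the sources used here.

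With the main transcripts alone, of 5136 bases for C3 and 5379 bases for C4b, the fold in TPM over FVB was 2.19 rather than 2.93 for C3 in Tg-RKIP, and 5.29 rather than 7.36 for C4b. The log2 fold change of the reads of the most abundant transcript was 0.67 for C3 and 1.95 for C4b, close to the gene sums.

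**Figure D3:**
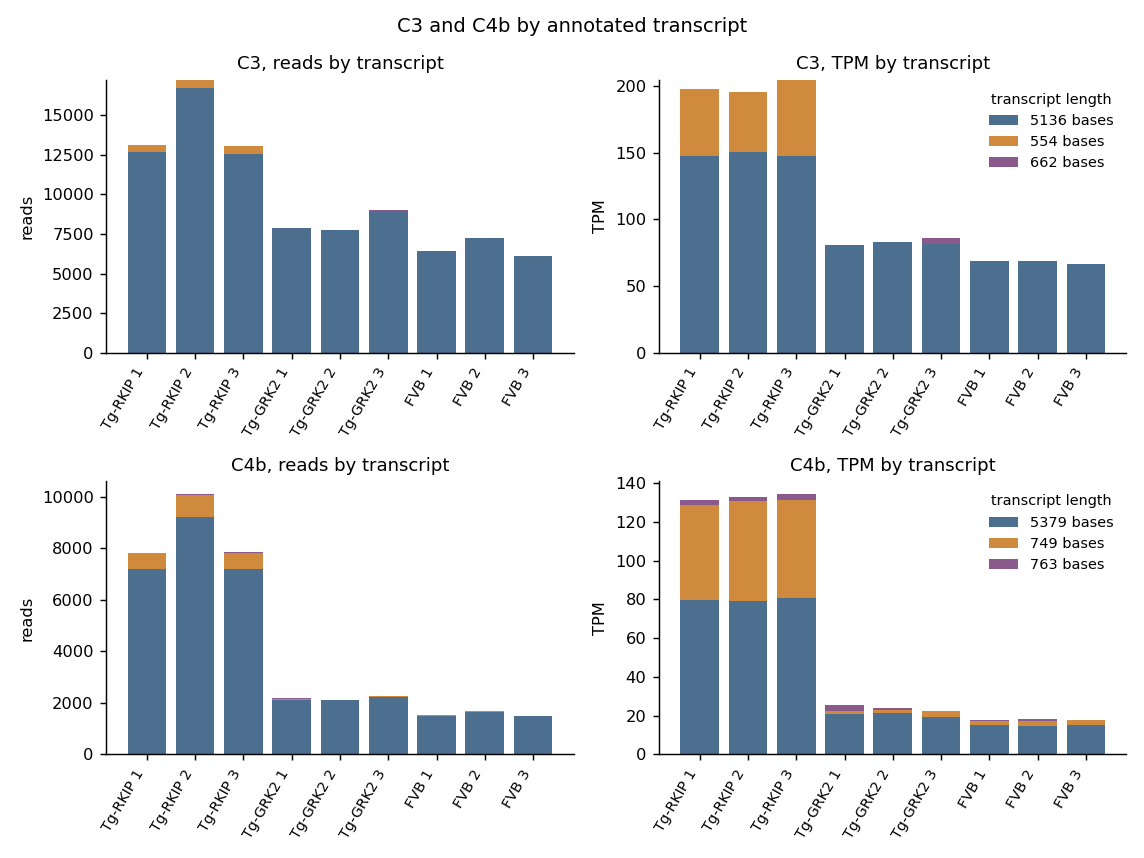
Reads (left) and TPM (right) of C3 and C4b in each library, stacked by annotated transcript and coloured by transcript length. The 554-base C3 transcript and the 749-base C4b transcript are thin bands in reads but, in Tg-RKIP, take 25.4% and 38.0% of the TPM.

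Cfb, the factor B of the alternative convertase, was a low gene. It was covered by 378, 406 and 356 reads in Tg-RKIP, 163, 173 and 141 in the Tg-GRK2-labelled libraries, and 107, 139 and 123 in FVB, at 15.9, 12.9 and 16.7, 5.14, 5.07 and 3.83, and 4.05, 4.15 and 4.61 TPM. The Tg-RKIP libraries were above all others, and the remaining groups overlapped in TPM. Cfb rose by 1.26 ± 0.11 in Tg-RKIP (adjusted p = 9.01e-10), and the Tg-GRK2-labelled libraries were at 0.28 ± 0.13 (adjusted p = 0.122, edgeR). The read-through transcript Gm20547 was assigned 24, 128 and 95 reads in Tg-RKIP, 0, 0 and 75 in the Tg-GRK2-labelled libraries and 52, 4 and 6 in FVB, uneven among the libraries of each group. Cfb and Gm20547 together had 402, 534 and 451 reads, 163, 173 and 216, and 159, 143 and 129, and the log2 fold change of this sum was 1.32 in Tg-RKIP (adjusted p = 1.23e-11, edgeR). Without the library labelled Tg-GRK2 3, Cfb alone passed in the Tg-GRK2-labelled libraries against FVB, at 0.42 (adjusted p = 0.0149).

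The receptor genes were low in all hearts. C5ar1, which binds C5a, had 361, 498 and 411 reads in Tg-RKIP, 190, 127 and 173 in the Tg-GRK2-labelled libraries, and 159, 187 and 157 in FVB, or 8.69, 9.28 and 9.997, 4.04, 2.81 and 3.86, and 3.53, 3.65 and 3.53 TPM. Only the Tg-RKIP libraries stood apart. C5ar1 rose by 0.97 ± 0.10 (adjusted p = 7.88e-09), whereas the Tg-GRK2-labelled libraries differed from FVB by -0.13 ± 0.11 (adjusted p = 0.445, edgeR). C3ar1, which binds C3a, had 348, 462 and 391 reads in Tg-RKIP, 281, 252 and 222 in the Tg-GRK2-labelled libraries, and 204, 235 and 191 in FVB, or 4.83, 4.96 and 5.48, 3.45, 3.21 and 2.41, and 2.61, 2.64 and 2.47 TPM.

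For C3ar1 the Tg-RKIP libraries were again highest, and the library labelled Tg-GRK2 3 lay below all FVB libraries in TPM while the other 2 lay above them. C3ar1 had the smallest rise of the 9 genes, 0.56 ± 0.10 (adjusted p = 2.32e-05), and it was at 0.17 ± 0.10 in the Tg-GRK2-labelled libraries (adjusted p = 0.273, edgeR). Without the library labelled Tg-GRK2 3 that value was 0.32 and passed (adjusted p = 0.0148). C3ar1 was also the single member whose rise in Tg-RKIP over FVB did not pass a test against a fold of 1.5 (adjusted p = 0.876, glmTreat in edgeR).

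Serping1, whose product inactivates the C1 proteases, was the most abundant of the 9. Its TPM was 437, 441 and 439 in Tg-RKIP, 163, 162 and 161 in the Tg-GRK2-labelled libraries, and 146, 145 and 149 in FVB. The 3 groups did not overlap. It rose by 1.17 ± 0.02 in Tg-RKIP (adjusted p = 2.05e-22) and by 0.10 ± 0.02 in the Tg-GRK2-labelled libraries (adjusted p = 0.00114, edgeR).

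The summed TPM of the 9 genes was 1150 ± 8.46 in Tg-RKIP, 423 ± 0.227 in the Tg-GRK2-labelled libraries and 374 ± 2.89 in FVB (SD, n = 3). Serping1 made up 38.2% ± 0.242, 38.3% ± 0.282 and 39.2% ± 0.816 of that sum. The share of C4b was 11.5% ± 0.0373 in Tg-RKIP, 5.65% ± 0.325 in the Tg-GRK2-labelled libraries and 4.83% ± 0.041 in FVB. C1qa held 13.1% ± 0.26, 14.3% ± 0.613 and 15.7% ± 0.0276 in the same order. With C3 and C4b counted by their main transcripts alone, C4b held 7.65% ± 0.0879, 4.90% ± 0.218 and 4.08% ± 0.108, and Serping1 42.0% ± 0.0579, 38.8% ± 0.321 and 39.5% ± 0.78, while C1qa then overlapped between Tg-RKIP (14.1% to 14.7%) and the Tg-GRK2-labelled libraries (13.8% to 14.9%). In FVB the order of the levels was Serping1, C3, C1qa, C1qb, C1qc, C4b, Cfb, C5ar1 and C3ar1, and no neighbours in that order overlapped in their TPM. In the Tg-GRK2-labelled libraries the order was the same, but Cfb overlapped C5ar1 and C5ar1 overlapped C3ar1. In Tg-RKIP C4b stood above C1qb and C1qc, at 133 ± 1.40 TPM against 108 ± 3.82 and 91.1 ± 2.82, but its main transcript alone, at 80.0 ± 0.763 TPM, stood below both.

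The 9 genes were higher in Tg-RKIP under every scaling tried. Library size alone and TPM move the median of all genes upward in Tg-RKIP, so they could hardly have reversed a rise under TMM. Scaled by library size alone, the 9 genes had log2 fold changes over FVB of 0.94 to 2.45. On log2(TPM + 0.1) they had 0.96 to 2.87, and all 9 passed in each. Relative to the median of all genes the first set was 0.55 to 2.07, as under TMM, because library size alone shifts all genes almost alike. Among all genes tested the scaling mattered more, since 49.8% of the calls were higher in Tg-RKIP under TMM and 78.6% under library size alone.

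**Figure D4:**
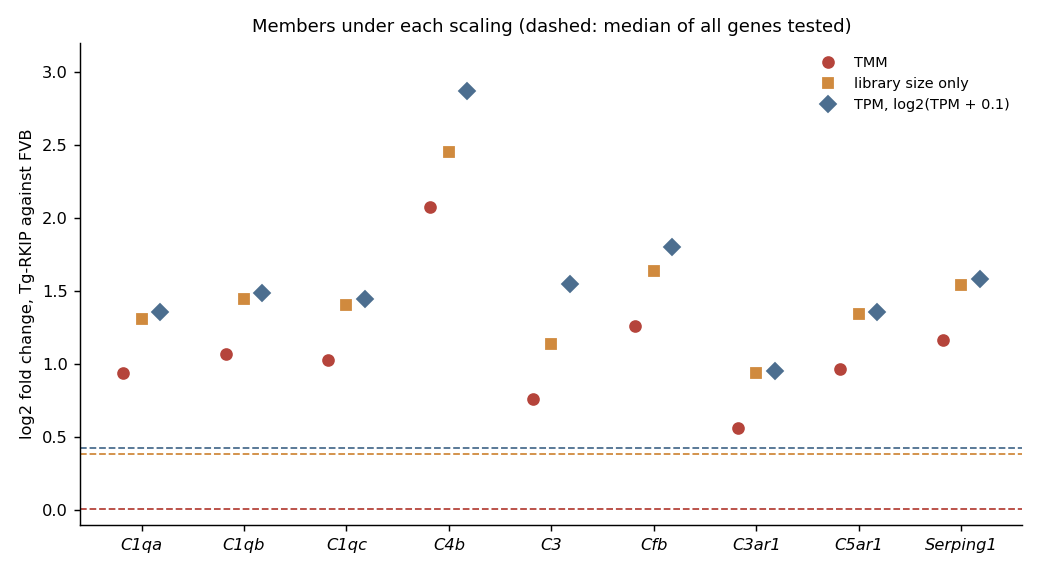
Log2 fold change of each complement gene in Tg-RKIP against FVB under 3 scalings, with the median of all genes tested under each as a dashed line. Every point lies above the dashed line of its scaling, and the lines lie at 0.01, 0.38 and 0.43.

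Beyond these 9 genes, 45 other complement genes were examined, and 34 passed the filter on low counts. In Tg-RKIP against FVB, 25 of the 34 were higher, 7 lower and 2 did not pass, with a median log2 fold change of 0.87. Among all genes tested 36.8% were higher and 37.1% lower, with a median of 0.01. In the Tg-GRK2-labelled libraries against FVB, 11 were higher, 3 lower and 20 did not pass, with a median of 0.14, beside 12.2% higher and 12.2% lower among all genes. For Tg-RKIP against the Tg-GRK2-labelled libraries the counts were 23, 6 and 5, beside 37.9% higher and 36.6% lower among all genes.

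All 8 tested genes of other recognition molecules and C1 proteases were higher in Tg-RKIP than in FVB, by 0.59 to 1.41, beside 36.8% of all genes. They included C1ra (1.08) and C1rb (1.25), which encode the C1r protease, Masp1 (1.09), a protease of the lectin route, and the lectin-route recognition genes Colec11 (1.41) and Fcna (1.12). C1ra and C1rb are near copies, and how reads between them were divided is not known. Of these 8 genes, 4 were also higher in the Tg-GRK2-labelled libraries than in FVB, beside 12.2% of all genes.

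All 4 other convertase genes were higher in Tg-RKIP than in FVB, beside 36.8% of all genes. Cfd, the factor D protease that activates factor B and is known as adipsin from adipocytes, had 1420, 1850 and 1444 reads in Tg-RKIP, 149, 163 and 190 in the Tg-GRK2-labelled libraries and 130, 161 and 127 in FVB. Tg-RKIP lay far above the others, which overlapped. Cfd rose by 3.12 ± 0.06 (adjusted p = 8.99e-22) and was at 0.17 ± 0.09 in the Tg-GRK2-labelled libraries (adjusted p = 0.199, edgeR). A list of 8 adipocyte markers without Cfd was higher in Tg-RKIP than in FVB at all 8 genes, beside 36.8% of all genes. Its summed TPM was 944 to 969 in Tg-RKIP, 525 to 558 in the Tg-GRK2-labelled libraries and 603 to 633 in FVB. In the Tg-GRK2-labelled libraries 5 of the 8, among them Adipoq (0.95), were higher than in FVB, Fabp4 was lower (-0.29) and 2 did not pass. Among all genes 12.2% were higher and 12.2% lower in that comparison.

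C2, the partner of C4 in the classical convertase, had 595, 708 and 530 reads in Tg-RKIP, 225, 222 and 222 in the Tg-GRK2-labelled libraries and 161, 181 and 127 in FVB. It was the only one of these 4 genes to pass against FVB in Tg-RKIP and in the Tg-GRK2-labelled libraries, at 1.60 ± 0.08 (adjusted p = 5.74e-14) and 0.42 ± 0.09 (adjusted p = 0.00214, edgeR). The read-through transcript Gm20547 also covers C2, and the windows that C2 shares with it were not examined. C4a, at 189, 170 and 141 reads in Tg-RKIP, 37, 30 and 44 in the Tg-GRK2-labelled libraries and 22, 36 and 28 in FVB, was 2.18 ± 0.18 higher in Tg-RKIP, close to the 2.07 of C4b with which it shares sequence. Properdin, encoded by Cfp, was at 0.92.

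Of the 12 tested regulators, 5 were higher, 5 lower and 2 not past the threshold in Tg-RKIP against FVB, beside 36.8% higher and 37.1% lower among all genes. Cfi, the factor I protease that degrades C3b and C4b, had 418, 495 and 380 reads in Tg-RKIP, 19, 29 and 29 in the Tg-GRK2-labelled libraries and 19, 33 and 20 in FVB. Its rise of 3.79 ± 0.13 (adjusted p = 1.24e-16, edgeR) was the largest of any complement gene tested, with 0.00 ± 0.23 in the Tg-GRK2-labelled libraries. Clu, which encodes the terminal pathway inhibitor clusterin, was at 1102 to 1126 TPM in Tg-RKIP and 356 to 368 in FVB, a rise of 1.21 ± 0.02.

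The 5 lower regulators were C1qbp (-0.69), Cd46 (-0.86), Vtn (-0.36), Cr1l (-0.21) and Cd59a (-0.10). Cd46 had only 17, 20 and 16 reads in Tg-RKIP and 26, 36 and 13 in FVB, and its TPM overlapped. The log2 fold changes of Cr1l, Cd59a and Vtn turned positive, at 0.16, 0.28 and 0.01, when libraries were scaled by size alone. Those of C1qbp and Cd46 stayed negative. Under that scaling 29 of the 34 genes were higher and 1 was lower, beside 25 and 7 under TMM, so C1qbp and Cd46 did not both pass there.

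Of the 7 other receptor genes, 6 were higher and Cd93 was lower (-0.38) in Tg-RKIP than in FVB, with Cd93 at 0.04 on log2(TPM + 0.1). Among all genes tested 36.8% were higher and 37.1% lower. Itgax (1.70) and Itgb2 (1.01) encode chains of complement receptors 3 and 4 on leukocytes. Cr2, complement receptor 2, known from B cells, had 13, 23 and 19 reads in Tg-RKIP, 6, 9 and 14 in the Tg-GRK2-labelled libraries and 2, 3 and 2 in FVB, and no fold is given because FVB is at the floor of 3 reads.

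Most terminal pathway genes had few or no reads in these hearts. Of the 7, Hc, C8a, C8b and C9 had at most 3 reads in any library, and C6, C7 and C8g were tested. C7 was at 49.7 to 51.8 TPM in Tg-RKIP, 23.8 to 24.3 in the Tg-GRK2-labelled libraries and 28.6 to 30.4 in FVB, and rose by 0.36 ± 0.03 in Tg-RKIP (adjusted p = 4.62e-10) but fell by 0.35 in the Tg-GRK2-labelled libraries (adjusted p = 4.62e-08, edgeR). C6 rose by 1.49 ± 0.22 in Tg-RKIP on 66 to 76 reads. C8g, a chain of C8, fell by 0.75 in Tg-RKIP (adjusted p = 0.00554, edgeR). It had only 27, 42 and 30 reads there and 43, 35 and 50 in FVB. Its TPM overlapped, at 1.55 to 1.98 in Tg-RKIP and 1.59 to 2.89 in FVB. The mannose-binding lectin genes Mbl1 and Mbl2, made mainly by hepatocytes, had 0 reads in every library.

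**Figure D5:**
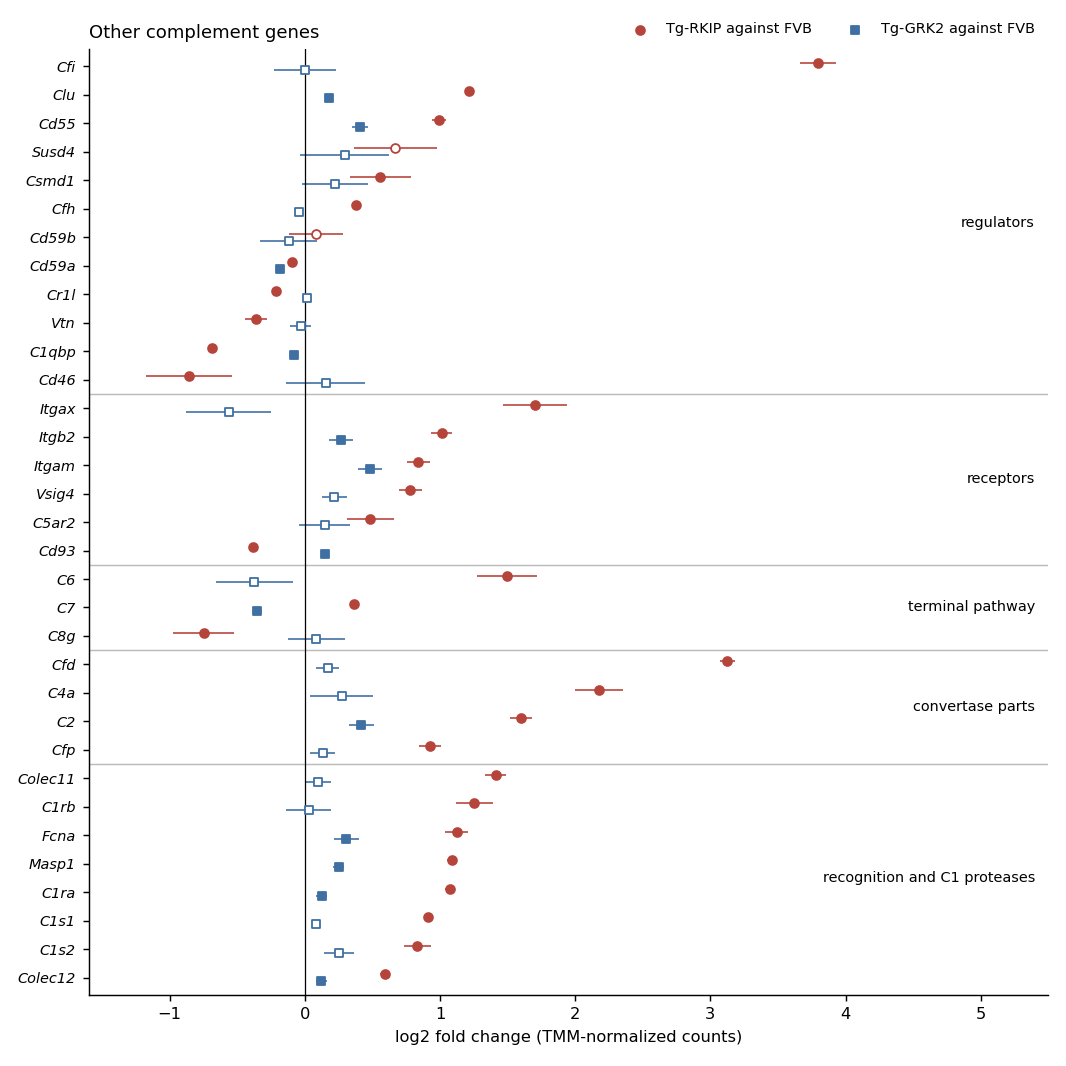
Log2 fold change of the other complement genes tested apart from Cr2, in Tg-RKIP against FVB (circles) and in the Tg-GRK2-labelled libraries against FVB (squares), by group of genes, with SE as bars; filled symbols have an adjusted p below 0.05. Cfi at 3.79 and Cfd at 3.12 are the highest circles, and the regulators lie on both sides of 0.

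Markers of other cells that make complement moved as well, and their part in these results was not tested. Fibroblast markers were higher in Tg-RKIP than in FVB at 8 of 8 genes, beside 36.8% of all genes. Their summed TPM was 4072 to 4102 against 2065 to 2124 in the Tg-GRK2-labelled libraries and 1841 to 1863 in FVB, and none was at 0. Endothelial markers went both ways in Tg-RKIP against FVB, with 4 of 7 higher and 3 lower. The median log2 fold change of these 7 was 0.09, from -0.83 for Kdr to 0.99 for Vwf. A list of 8 hepatocyte markers summed to 36.5 to 38.1 TPM in Tg-RKIP, 8.22 to 9.71 in the Tg-GRK2-labelled libraries and 12.0 to 13.6 in FVB. Most of that sum was Ahsg, at 32.3 to 33.8, 7.55 to 8.24 and 9.0006 to 10.6489 TPM in the same order. Alb, Apoa1, Fgb and Cps1 were at the floor of 3 reads in Tg-RKIP. Of the 5 tested genes of the list, Ahsg, Ttr and Apoh were higher in Tg-RKIP than in FVB. Alb and Serpina1a were lower, with Alb at 0 reads in all Tg-RKIP libraries. Airway markers summed to 85.2 to 90.7 TPM in Tg-RKIP, 181 to 191 in the Tg-GRK2-labelled libraries and at most 0.0739 in FVB. Neutrophil markers summed to 9.81 to 11.1 TPM in Tg-RKIP, 2.48 to 3.25 in the Tg-GRK2-labelled libraries and 0.596 to 1.52 in FVB. The defining cardiomyocyte markers were abundant in every library, at 51028 to 54064 TPM in sum. Of the 8 in TMM-normalized counts, 6 were lower in Tg-RKIP than in FVB, 1 was higher and 1 did not pass. Their median log2 fold change was -0.54, from -2.07 for Ryr2 to 0.89 for Myh7, beside 37.1% lower among all genes.

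Among all tested genes outside the 9, those with the pattern most like a member were found by the smallest Euclidean distance over the 9 libraries of log2 counts centred on the FVB mean. For C1qa they were Myl6 (distance 0.0952), Des (0.0954) and Hexa (0.103). For C3 they were Chst14 (0.109), Vasp (0.136) and Megf6 (0.14), and for Serping1 they were Ckb (0.103), Ckap4 (0.11) and Igfbp6 (0.112). C5ar1, with its low reads, had larger distances to its nearest genes Ncf1 (0.313), Zfp688 (0.326) and Zscan18 (0.336).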

How the data were processed

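The authors sequenced fragmented heart mRNA as single reads of 50 bases and deposited read counts per Ensembl transcript, as whole numbers without normalization, and TPM per transcript. The deposited TPM equal counts divided by transcript length and rescaled, to within 5.5e-06. The build GRCm39 is from the submitters' processing notes, and the aligner and counting program are not given in the sources used here. Counts and TPM of 127558 transcripts were summed by gene name. The main test was the quasi-likelihood test of edgeR 4.0.16 under R 4.3.3 (TMM scaling, filterByExpr, then glmQLFit and glmQLFTest on group means of all 9 libraries), with Benjamini-Hochberg adjustment over 15504 genes at 0.05. The replicates are labelled as separate hearts. On average over genes, pairs of libraries within a group differed by more than sampling noise, at a mean chi-square of 1.74 to 23.4. Pairs of an FVB and a Tg-GRK2-labelled library, at 10.6 to 28.9, overlapped that range. Whether single complement genes varied between replicates by more than sampling noise was not tested. Their spread was uneven. TMM-normalized counts, scaled to a common library size, were 44.6 ± 0.462 for C1qa in FVB, on 1109, 1277 and 1088 reads. For C5ar1 in the Tg-GRK2-labelled libraries they were 5.89 ± 1.12, on 190, 127 and 173 reads (SD, n = 3). How far the small SE and adjusted p reflect variation between mice rather than read counting was not tested. TPM of single genes were compared by exact two-sided permutation (scipy 1.17.1). The test was checked on simulated counts in which few genes changed and all shared the same dispersion. That check does not cover a change of most genes, as between Tg-RKIP and FVB. The alternatives were other scalings and filters, DESeq2 1.42.0, limma 3.58.1 on log2(TPM + 0.1) and log2(TPM + 1), glmTreat at a fold of 1.5, a replicate block, the most abundant transcript, a fit of 2 groups, each library left out, and, added after seeing the data, C4b summed with C4a and Cfb with Gm20547. Promoter windows and motif shares come from RefSeq (GRCm38.p6), and transcript sequences from GENCODE M21.

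Named were the 9 members by role, C4a, C2 and Cfd, other complement genes past the threshold with a log2 fold change of at least 1 in size, and, for the member highest in FVB of each role, the 3 genes nearest in pattern. Cfp, C7, C8g, Cd93, the lower regulators and the markers given by name were named after their values were seen. The members and lists were chosen with earlier results of these data known.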

Additional observations from a re-analysis of the deposited data

How the results depend on the processing

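All 9 complement genes stayed higher in Tg-RKIP, against FVB and against the Tg-GRK2-labelled libraries, in every alternative, except that a test against a fold of 1.5 lost C3ar1 in the first comparison and C3 and C3ar1 in the second, at unchanged log2 values. In the Tg-GRK2-labelled libraries against FVB, 4 members passed in the reported fit, 3 to 5 on leaving out a library, 3 by DESeq2, 5 under library size alone and 0 against a fold of 1.5. C1qb passed in 11 alternatives there and C1qc was lost in 8. C1qa, near 0, changed sign to 0.0024 with DESeq2 or its size factors, 0.0047 with library size alone, 0.0027 with the most abundant transcript, 0.0419 and 0.0413 with limma on log2(TPM + 0.1) and log2(TPM + 1), and stood between -0.0248 and 0.0244 on leaving out a library, never past the threshold.

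The other complement genes passing were 32 in Tg-RKIP against FVB and 21 against a fold of 1.5, 29 and 16 in Tg-RKIP against the Tg-GRK2-labelled libraries, and 14 and 0 in the latter against FVB, where the most abundant transcript gave 7, DESeq2 9 and leaving out a library 9 (without FVB 2) to 13. Over all genes, 82 were higher and 73 lower in that comparison against a fold of 1.5, and 366 had an unadjusted p under 0.05. It had 24.5% of all genes passing in the reported fit. In Tg-RKIP against FVB 73.9% of all genes passed, and against a fold of 1.5, 1975 were higher and 1690 lower. For Tg-RKIP against the Tg-GRK2-labelled libraries these were 74.5%, 2033 and 1834, of 15504 genes tested. Why the counts changed between settings was not tested.

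Replicate numbers are shared between groups, but same-numbered libraries did not deviate together (correlations -0.0455 to 0.0508), so the number is only a name. With the replicate number as a block 9, 4 and 9 members and 32, 14 and 29 other complement genes passed in the 3 comparisons, as without it. Reads of C3ar1, C5ar1 and Cfb, 107 to 498 per library, limit what could be seen of their small differences.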
